A study of Mus musculus with 16 samples.

Results

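Goblet cells of the distal colon and of the small intestine lie in different epithelia, and this account is about the genes whose level set them apart from the other epithelial cells of their region in the same direction and by a similar amount in both. The series holds 16 RNA libraries of sorted mouse intestinal epithelium in 4 groups of 4, all from RedMUC298trTg mice that were 6 to 8 weeks old. In this line goblet cells carry the red fluorescent protein mCherry; live cells with mCherry were sorted as goblet cells and live cells without it as the other epithelial cells, labelled colonocytes in the distal colon and enterocytes in section 8, the 8th portion of the small intestine, with a C57Bl6 mouse used to set the gate. The 4 groups were therefore goblet cells of the distal colon, other epithelial cells of the distal colon, goblet cells of section 8 and other epithelial cells of section 8, with no treatment in any of them. The sort without mCherry had no further marker, so it is a mixture of every other cell type released with the epithelium. Goblet lysates and other lysates were also passed over different RNA columns, so the column and the cell type cannot be told apart.

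The averaged goblet effect is the mean of the log2 fold changes in both regions, goblet cells over other epithelial cells, and it was tested over 15962 genes. A gene was counted as core when its adjusted p was under 0.05 in the averaged contrast and in each region alone, when all 3 had the same sign, when the averaged log2 fold change was at least 1 in size, and when the effects of the 2 regions differed by at most 1 log2. By this rule 646 genes, or 4.05% of those tested, were core and higher in goblet cells, and 984, or 6.16%, were core and lower. Region differences are given as the distal colon effect minus the section 8 effect, in log2. The rule used the effects themselves, so the direction and likeness of core genes, and their p-values, describe the choice and are no test of it.

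Goblet cells are secretory cells that make, sugar-coat, pack and release mucins, the large glycoproteins of mucus. A mucin chain enters the endoplasmic reticulum (ER) through a protein channel, is folded and joined by disulfide bonds there, receives most of its sugars in the Golgi, and is stored in granules that open at the apical surface on a calcium signal. Absorptive cells, the main other cell of the epithelium, instead carry a brush border of microvilli with transporters and digestive enzymes, and burn and export fat and sugar. Both kinds of cell arise from crypt stem cells, and Notch signals between neighbouring cells hold back the secretory fate.

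Total counts ranged from 11915081 to 18530171 in the distal colon and from 30839377 to 41075589 in section 8. Within groups every pair of libraries differed by more than sampling noise, and the labels do not say which libraries came from separate mice, so p-values measure the spread between these samples, which may in part be technical. Levels are given in CPM, read counts scaled to a common library size. Muc2, the main mucin, which checks the sort, stood at 9406 to 10881 CPM in the goblet libraries and 33.6 to 49.6 CPM in the others of the distal colon, and at 24779 to 66021 against 26.1 to 91.2 CPM in section 8. The count tables of the regions differ in that all 37 symbols starting with mt- are at 0 in the distal colon alone, and whether both were counted alike is not given in the sources used here. A fold change lies within 1 table, but a level set beside that of the other region carries this doubt. Goblet libraries S2 and S4 of section 8, named by the numbers in their titles, had 24779 and 29788 CPM of Muc2 and S6 and S8 had 66021 and 43473 CPM, so the core was also counted with either pair of section 8 libraries of each sort alone. With libraries S1 to S4 of section 8 alone 596 genes were core and higher and 872 core and lower, and with S5 to S8 alone 643 and 1052. Markers of absorptive cells summed to 288 to 359 CPM in distal colon goblet libraries against 5545 to 6358 CPM in the others, and to 2272 to 4118 against 16158 to 29385 CPM in section 8, and none of the 14 was at 0 in all 4 goblet libraries of a region. In the averaged contrast none of the 14 was called higher and 11 were called lower. For Anpep and Apoa4 that average hid opposite directions. Anpep had log2 fold changes of 2.33 in the distal colon and -3.67 in section 8, and Apoa4 had 1.93 and -4.62. Apoa4 was at 0 in the other cells of the distal colon. The 10 genes with the most counts took 16.4% to 27.2% of the counts in section 8 goblet libraries and 8.41% to 10.9% in all other libraries. Paneth cell markers moved the other way: in section 8 they summed to 11441 to 32134 CPM in goblet libraries and 673 to 1777 CPM in the others. In the distal colon the same 9 markers summed to 31.9 to 37.3 CPM against 2.46 to 2.89 CPM, with Defa17, Defa24, Defa22 and Defa26 at 0 in both groups. Of these 9 markers 4 were called higher and none lower in the averaged contrast, and 1, the lysozyme gene Lyz1, met the core rule. The 6 markers of deep crypt secretory cells were all called higher and summed to 2299 to 3038 against 194 to 285 CPM in the distal colon and 651 to 934 against 177 to 216 CPM in section 8. Summed markers of stromal and endothelial cells were lower in goblet libraries of both regions, and those of B, plasma and myeloid cells in section 8 only. The 3 tested stromal and endothelial markers were all called lower, 2 of them core, at 2.11 to 2.53 against 11.8 to 20.9 CPM in the distal colon and 2.50 to 4.01 against 22.0 to 24.4 CPM in section 8. Of 12 markers of B, plasma and myeloid cells 6 were called lower, 2 of them core, and 2 higher. They summed to 33.7 to 36.4 against 31.0 to 36.9 CPM in the distal colon, with Cd79b and Igkc at 0 in its goblet libraries, and to 52.6 to 103 against 243 to 416 CPM in section 8. The part of these other cells in the core was not tested.

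Over all tested genes the averaged effect was called higher for 5509, which is 34.5% of the background, and lower for 5471, or 34.3%. Most of these differences were small: 1288 of the higher genes and 2112 of the lower genes reached a log2 fold change of 1. Of the 1288, 259 were not called in 1 or both regions, 28 were called in opposite directions, 355 were called the same way but differed by over 1 log2 between regions, and 646 were core. Of the 2112, 568 were not called in 1 or both regions, 7 were called in opposite directions, 553 differed by over 1 log2 and 984 were core. Among the 646, 602 had all goblet libraries above all other libraries in both regions, and among the 984, 888 had them all below. Over all tested genes these shares were 15.2% and 15.9%, but the core rule favours such separation, which is thus no test of it. The lists of known mucus genes, which cover secreted mucus proteins, goblet lineage factors, mucin O-glycosylation, ER folding, ER to Golgi transport and granule release, took in only 43 of the 646, and 603 lay outside them. Fewer cells of a type and less RNA per cell cannot be told apart in such bulk libraries.

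**Figure D1:**
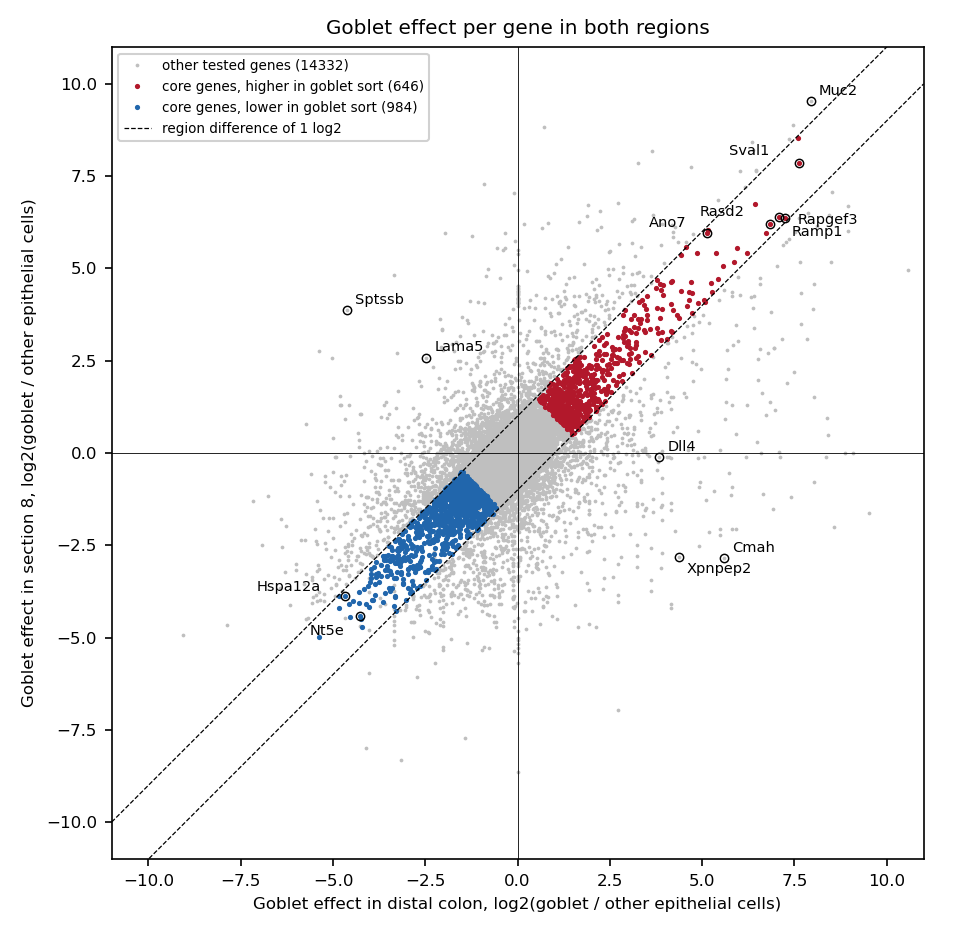
Each point is 1 of the 15962 tested genes, with its goblet effect in the distal colon on the x axis and in section 8 on the y axis, both as log2 of goblet over other epithelial cells. Red and blue points are the 646 and 984 core genes, which lie by choice between the dashed lines of a region difference of 1 log2, while circled genes are named in the text.

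The plot of effects by region shows the core as a band along the diagonal that runs from small to very large effects. The median size of the averaged effect was 1.51 log2 in the higher core genes and 1.53 in the lower ones. At least 2 log2 was reached by 183 higher and 277 lower core genes, and at least 3 log2 by 84 and 95. Across all tested genes the effects of both regions had a Pearson correlation of 0.58, a description over genes, which share libraries and are not independent replicates.

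The core genes described next are the 15 with the largest averaged increase among those outside the mucus lists that reached 10 CPM in goblet cells of both regions and whose libraries did not overlap in either, 274 genes in all. Among them were proteins of signalling by the second messengers cAMP and cGMP and by the small GTPase Rap1. Rapgef3 (Epac1) is an exchange factor that loads Rap1 when it binds cAMP, and its gene lies on chromosome 15, 97744770 to 97767972 (mm10). Its level was 74.0, 79.9, 79.1 and 78.0 CPM in the 4 goblet libraries of the distal colon and 0.383, 0.548, 0.471 and 0.633 CPM in the others. In section 8 the goblet libraries had 55.8, 62.8, 83.8 and 68.1 CPM and the others 0.903, 0.525, 1.18 and 0.696 CPM. Every goblet library stood far above every other library, and the averaged log2 fold change was 6.81 ± 0.13 (SE), a 112-fold difference (edgeR quasi-likelihood test, adjusted p = 2.7e-18). Rap1gap, which switches Rap1 off, was high in the same libraries. It stood at 321, 310.0, 319 and 329 CPM in distal colon goblet cells against 6.35, 8.21, 6.79 and 8.10 CPM, and at 179.7, 191, 179 and 139.9 against 8.197, 5.12, 7.24 and 5.70 CPM in section 8, an averaged log2 fold change of 5.08 ± 0.10. Pde2a, a phosphodiesterase that breaks down cAMP and cGMP and is stimulated by cGMP, had 359.8, 387, 381 and 361 CPM against 25.4, 32.6, 21.2 and 24.2 CPM in the distal colon. In section 8 Pde2a had 130.2, 142, 138 and 105 against 6.36, 3.96, 5.39 and 6.04 CPM, and the averaged log2 fold change was 4.21 ± 0.10. The groups did not overlap for Rap1gap or Pde2a in either region. Rasd2 (Rhes), a Ras-like GTPase, was near 1 CPM in every library of the other epithelial cells, at 0.633 to 1.16 and 0.564 to 1.12 CPM in the 2 regions. In goblet cells Rasd2 reached 92.1 to 103 CPM in the distal colon and 43.8 to 81.5 CPM in section 8, an averaged log2 fold change of 6.53 ± 0.15.

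Ramp1, on chromosome 1, 91179822 to 91225196, encodes the accessory protein that turns the calcitonin receptor-like receptor into the receptor of the neuropeptide CGRP. Ramp1 had 246, 232, 222 and 214 CPM in distal colon goblet cells and 1.42, 2.01, 1.82 and 1.46 CPM in the other cells there. In section 8 its levels were 43.9, 39.4, 55.9 and 59.9 CPM and 0.758, 0.341, 0.822 and 0.497 CPM. The difference was 107-fold on average, with a log2 fold change of 7.09 ± 0.18 in the distal colon and 6.39 ± 0.19 in section 8. Calcrl, the gene of its partner receptor, was looked up after these values were seen, and it too met the core rule. Calcrl stood at 8.62 to 14.3 CPM in distal colon goblet cells and 2.46 to 3.35 CPM in the others, and at 1.07 to 1.86 against 0.289 to 0.428 CPM in section 8. Its averaged log2 fold change was 2.05 ± 0.15 (adjusted p = 3.6e-10), on a level in section 8 goblet cells of under 2 CPM.

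Secreted and defence proteins formed a further share of the largest increases. Sval1, a secreted protein of the seminal vesicle antigen family, showed the largest averaged effect of the 15. Its level was 1284, 1089, 1060.0 and 816 CPM in distal colon goblet cells against 5.36, 6.27, 5.51 and 4.18 CPM, and 22.8, 16.8, 30.3 and 22.6 against 0.108, 0.105, 0.0658 and 0.0995 CPM in section 8. The log2 fold changes, 7.64 ± 0.20 and 7.85 ± 0.29, were thus alike although the goblet level was far higher in the distal colon, and the section 8 value rests on 12 counts in all 4 libraries of the other cells. Pla2g2f, a secreted phospholipase A2, had 202 to 218 against 5.04 to 7.36 CPM in the distal colon and 69.3 to 79.7 against 3.18 to 6.02 CPM in section 8, with a region difference of 0.98 log2 that only just met the limit. Ccl9, a chemokine that draws myeloid cells, reached 24.9 to 34.7 CPM in distal colon goblet cells and 102 to 131 CPM in those of section 8, and its averaged log2 fold change was 4.23 ± 0.13. Irak3, the inhibitory member of the kinase family downstream of Toll-like and interleukin-1 receptors, was low but clear of overlap, at 12.5 to 14.04 against 0.403 to 0.711 CPM and 9.69 to 12.8 against 0.367 to 0.614 CPM. Exons of Irak3 share 5.22% of their length with those of Tmbim4 on the opposite strand, a gene of up to 75.8 CPM, and whether counting used the strand is not given in the sources used here.

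Several of the 15 encode membrane proteins. Ano7, of the anoctamin family of membrane proteins, had an averaged log2 fold change of 5.55 ± 0.16, with 86.2 to 94.9 CPM in distal colon and 237 to 419.9 CPM in section 8 goblet cells. Hepacam2, an immunoglobulin-like adhesion molecule, was among the most abundant of the set, at 649, 568, 599.5 and 552 CPM in distal colon goblet cells and 396, 358, 555 and 444 CPM in section 8 goblet cells. In the other cells Hepacam2 ranged from 9.35 to 18.3 CPM in the distal colon and from 8.11 to 15.3 CPM in section 8, and the averaged difference was 39.8-fold. Slc2a10, a glucose transporter family member, differed by 29.7-fold and Casc4, a Golgi membrane protein also called Golm2, by 25.5-fold. The plot of levels by library shows the same gap for all 15 of these genes.

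**Figure D2:**
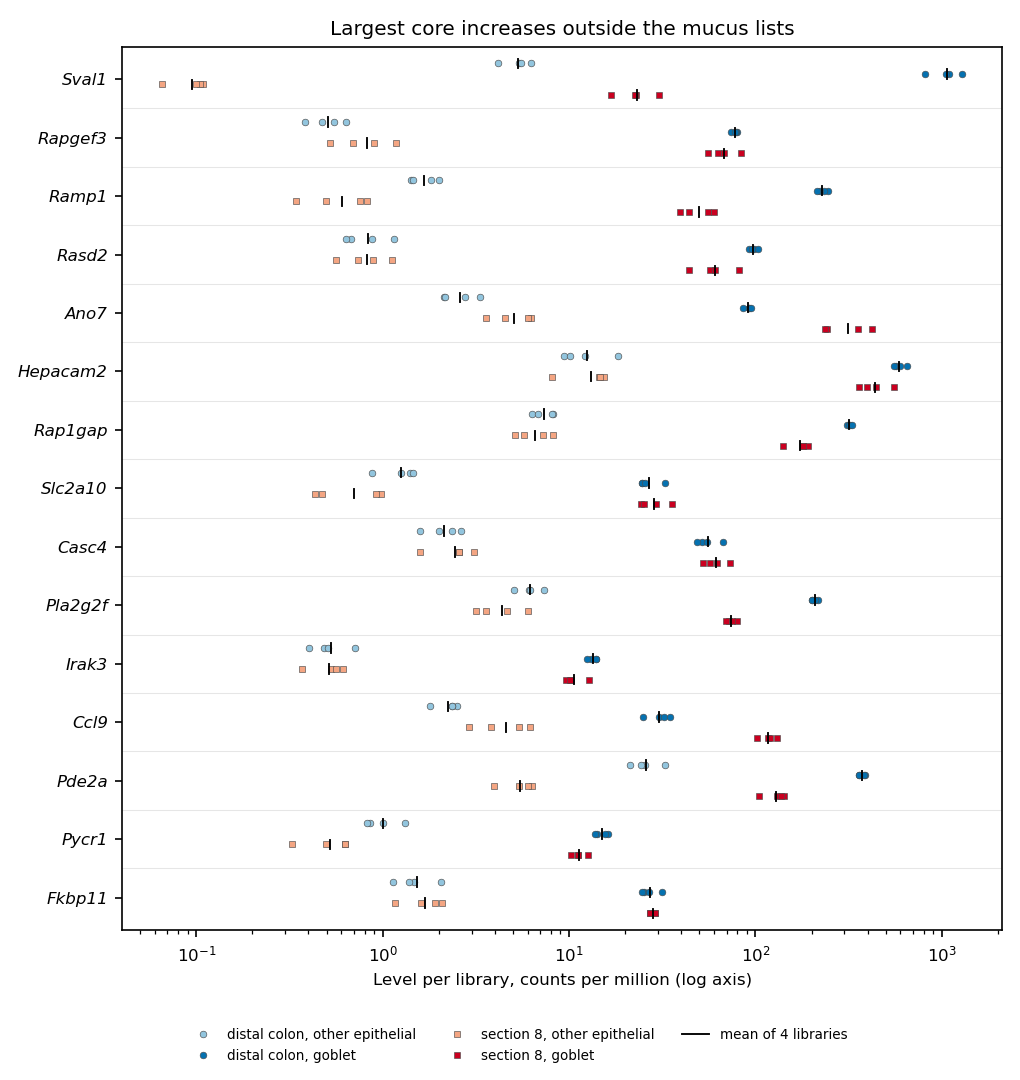
Level in each of the 16 libraries, in CPM on a log axis, of the 15 named core genes outside the mucus lists with the largest averaged increase. Circles are distal colon and squares section 8 libraries, dark symbols are goblet cells, and black ticks are means of 4 libraries; goblet libraries lie to the right of the other libraries of their region in every row.

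The closest likeness between regions, among higher core genes of at least 2 log2, was seen for Casc4, Slc50a1, Ttyh1, Ptpro and Cd24a. Slc50a1, a sugar transporter of the SWEET family, had 97.3, 99.0, 88.0 and 90.6 CPM in distal colon goblet cells against 18.9, 16.5, 14.4 and 15.2 CPM, and 41.0, 41.4, 42.6 and 37.0 against 7.11, 7.19, 7.14 and 6.04 CPM in section 8. Its levels in the distal colon were about double those in section 8 in both sorts, while the folds were 5.76 and 5.89, a region difference of -0.03 (95% interval -0.31 to 0.24). Cd24a, a small surface glycoprotein used as a marker of crypt secretory cells, had folds of 4.07 and 3.96 and a region difference of 0.04 (95% interval -0.40 to 0.48). For Ttyh1, a membrane protein of the tweety family, and Ptpro, a receptor-type tyrosine phosphatase, the estimates were as close but the intervals were wider, at 0.09 (95% interval -0.89 to 1.06) and -0.05 (95% interval -0.81 to 0.71). These 5 were picked for their small difference, so the values are a description.

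Genes of entry into the ER were mostly higher, with many core genes among them. Of 23 tested genes for the translocon, signal peptidase and signal recognition particle, 22 were called higher and 1 lower in the averaged contrast, with a median log2 fold change of 1.05 against 0.01 over all tested genes. Core genes numbered 13 of the 23, against 4.05% of all tested genes, and none was core and lower. Ssr3, a subunit of the translocon-associated complex, stood at 497, 499, 487 and 462 CPM in distal colon goblet cells against 172, 193, 152 and 161 CPM. In section 8 Ssr3 had 510.2, 434, 479.5 and 498 against 270.3, 254, 201 and 202 CPM, and the averaged log2 fold change was 1.29 ± 0.07. Sec11c and Spcs3, subunits of signal peptidase, which cuts off the leader of incoming proteins, had averaged log2 fold changes of 1.36 ± 0.07 and 1.27 ± 0.08. Tram1, which helps chains into the membrane at the channel, had one of 1.16 ± 0.07. The goblet libraries lay above all others of their region for each of these 4 genes.

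N-glycosylation, the transfer of a ready-made sugar tree to entering proteins, moved the same way: 30 of 32 tested genes were called higher and 1 lower, with a median of 0.71, and 7 were core. Rpn1, Stt3a, Ostc and Krtcap2 are subunits of the enzyme that makes this transfer, and their averaged log2 fold changes were 1.21 ± 0.07, 1.17 ± 0.07, 1.46 ± 0.08 and 1.46 ± 0.08. Rpn1 stood at 486 to 543 against 154 to 201 CPM in the distal colon and at 640.5 to 713 against 305 to 433 CPM in section 8. Exons of Krtcap2 share 15.7% of their length with those of Trim46 on the opposite strand. Fkbp11, an ER proline isomerase of secretory cells, belonged to no list and was 1 of the 15 largest increases. Its levels were 31.7, 25.2, 26.8 and 24.6 CPM against 1.48, 2.07, 1.143 and 1.39 CPM in the distal colon and 28.9, 27.3, 29.1 and 27.1 CPM against 2.09, 1.92, 1.61 and 1.16 CPM in section 8, folds of 17.7 and 16.5.

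Sugar donors were less uniform. Of 34 tested genes for the synthesis and transport of sugar nucleotides, 23 were called higher and 8 lower, with a median of 0.53. Among them 6 were core and higher and 1 core and lower. The called shares of all tested genes were 34.5% higher and 34.3% lower. Gne, the first enzyme of sialic acid synthesis, had 1083 ± 62.8 CPM (SD, n = 4) in distal colon goblet cells and 537 ± 22.0 CPM in the others, and 152 ± 12.4 against 57.6 ± 8.59 CPM in section 8. Slc35a1, which carries activated sialic acid into the Golgi, had 360.0 ± 7.26 against 138 ± 11.3 CPM and 61.7 ± 5.96 against 17.3 ± 1.96 CPM. For both genes all 4 groups separated, with the distal colon several times above section 8 in each sort and folds of 2.02 and 2.65 for Gne and 2.61 and 3.57 for Slc35a1. Tsta3, which makes activated fucose, differed by 2.46-fold. The lower member was Slc35d1, a carrier of other sugar nucleotides into the ER, at 6.90 ± 0.473 against 23.1 ± 3.42 CPM and 18.9 ± 1.77 against 55.5 ± 6.81 CPM.

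Genes of amino acid synthesis and of tRNA charging were mostly higher, by smaller steps. Of 28 tested genes of serine and one-carbon metabolism and other targets of the stress factor ATF4, 19 were called higher and 4 lower, with a median of 0.52 and 4 core genes. Asns, which makes asparagine, had 77.1, 80.1, 84.7 and 76.0 CPM against 23.5, 20.6, 19.8 and 19.4 CPM in the distal colon and 129, 124, 144 and 141 against 39.9, 44.0, 33.3 and 26.0 CPM in section 8. Its folds were 3.81 and 3.75, with a region difference of 0.02 (95% interval -0.34 to 0.38). Pycr1, which completes the synthesis of proline, an abundant residue of mucins, was low in every library but differed by 17.7-fold on average. It had 13.8 to 16.3 against 0.823 to 1.31 CPM and 10.2 to 12.7 against 0.325 to 0.630 CPM. Mthfd2, of mitochondrial folate metabolism, and Cbs, of cysteine synthesis, were the other core members, with averaged log2 fold changes of 1.45 ± 0.09 and 1.17 ± 0.10. Aldh18a1, which starts proline synthesis, fell just outside, since its log2 fold change was 1.63 ± 0.10 in the distal colon and 0.63 ± 0.09 in section 8. Of 20 tested aminoacyl-tRNA synthetases of the cytosol 19 were called higher and none lower, with a median of 0.59, and Wars, Tars and Cars were core, with 1.88 ± 0.07, 1.138 ± 0.06 and 1.03 ± 0.07. Of 24 amino acid transporters 9 were called higher and 12 lower, with 5 core and higher and 4 core and lower. For comparison with the counts of these lists, 34.5% of all tested genes were called higher and 34.3% lower. Core genes were 4.05% and 6.16% of all tested genes. The called share of higher transporters was thus near that of all genes. Slc43a1, a carrier of large neutral amino acids, was higher by 10.0-fold and Slc7a6, which exchanges cationic and neutral amino acids, by 4.14-fold. Slc3a1 and Slc7a9, which together form the cystine and dibasic amino acid transporter of the absorptive brush border, were lower by 9.30-fold and 8.55-fold, Slc7a9 from 17 counts over the 4 goblet libraries of the distal colon. Exons of Slc3a1 share 26.5% of their length with those of Prepl on the opposite strand.

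Within the mucus lists the higher core genes were 17 of 36 tested ER folding genes, 11 of 40 of mucin O-glycosylation, 8 of 45 of ER to Golgi transport, 3 of 11 lineage factors and 2 each of 14 mucus proteins and 22 granule genes. The factors were Spdef, Creb3l4 and Xbp1. Creb3l4, an ER-anchored factor, was the most alike of them, at 154 to 171 against 2.56 to 5.90 CPM and 73.2 to 99.3 against 1.09 to 2.78 CPM, log2 fold changes of 5.37 ± 0.24 and 5.42 ± 0.24. Xbp1, a factor of the unfolded protein response, was called in both regions with 1.78 ± 0.09 in the distal colon and 0.88 ± 0.08 in section 8. Kdelr3, which returns escaped ER proteins, had an averaged log2 fold change of 4.11 ± 0.10 and Txndc5, a disulfide isomerase, one of 3.34 ± 0.09. Muc2 itself was not core, since its region difference was -1.60 log2 (log2 fold changes of 7.94 ± 0.42 and 9.53 ± 0.45), whereas Fcgbp, its abundant partner in mucus, was core with 8.06 ± 0.24.

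Promoter sequence was set beside these groups because XBP1 and ATF6, factors of the unfolded protein response, bind short elements whose letters can be searched. The RefSeq promoter table (GRCm38.p6, 250 bases before to 50 after a transcript start) held 13648 windows for 10696 of the 15962 tested genes, 595 of them from 445 of the 646 higher core genes and 888 from 647 of the 984 lower ones. The ER stress element, read as CCAAT and CCACG with any 9 bases between them on either strand, was found in 20 windows, or 0.147%. It was in 6 windows of higher core genes, or 1.01%, and in 0 of the 888 windows of lower core genes. The 6 genes were Pdia6, Dnajc3, Creld2 and Derl3, all on the ER folding list, and Ptgdr2 and Zfp57, both on no mucus list. For higher core genes outside the mucus lists the element was thus in 2 of 554 windows, or 0.361%. The unfolded protein response element TGACGTGG was in 1.05% of all windows, 2.69% of those of higher core genes and 1.01% of those of lower core genes. Outside the mucus lists its share in higher core genes was 2.35%. The cAMP response element TGACGTCA was in 2.95%, 2.19% and 1.35%, and the E-box CAGCTG in 15.7%, 18.99% and 17.6%. A match describes letters in a window and shows neither binding nor a cause, and no test was made of these shares.

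Windows of 4 core genes are shown because they hold an intact element, in capitals, beside a clear difference in level in both regions; Pdia6, Dnajc3 and Smim14 were chosen after their values were seen. Pdia6 is a disulfide isomerase and Dnajc3 a cochaperone of the ER, Slc7a6 is the amino acid exchanger above, and Smim14 is a small integral membrane protein. The windows are chr12:17266339-17266638 (plus strand) for Pdia6, chr14:118937682-118937981 (plus strand) for Dnajc3, chr8:106168671-106168970 (plus strand) for Slc7a6 and chr5:65492662-65492961 (minus strand) for Smim14, each written 5′ to 3′.
Pdia6: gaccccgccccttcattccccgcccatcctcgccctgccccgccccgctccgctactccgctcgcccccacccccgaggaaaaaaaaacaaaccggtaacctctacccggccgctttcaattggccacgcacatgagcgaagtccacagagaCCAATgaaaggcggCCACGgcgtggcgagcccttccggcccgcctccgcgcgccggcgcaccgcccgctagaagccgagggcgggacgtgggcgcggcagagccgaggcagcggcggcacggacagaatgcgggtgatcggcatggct
Dnajc3: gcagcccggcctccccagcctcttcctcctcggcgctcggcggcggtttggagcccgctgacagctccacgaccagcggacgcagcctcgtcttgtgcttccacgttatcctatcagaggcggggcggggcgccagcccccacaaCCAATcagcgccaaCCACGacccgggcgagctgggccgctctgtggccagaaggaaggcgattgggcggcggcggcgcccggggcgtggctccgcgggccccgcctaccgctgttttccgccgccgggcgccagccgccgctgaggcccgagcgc
Slc7a6: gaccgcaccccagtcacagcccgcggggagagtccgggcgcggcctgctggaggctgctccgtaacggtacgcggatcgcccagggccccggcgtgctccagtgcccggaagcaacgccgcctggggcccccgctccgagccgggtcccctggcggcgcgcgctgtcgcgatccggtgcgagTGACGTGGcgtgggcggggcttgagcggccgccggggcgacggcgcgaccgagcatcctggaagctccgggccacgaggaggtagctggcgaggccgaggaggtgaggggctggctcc
Smim14: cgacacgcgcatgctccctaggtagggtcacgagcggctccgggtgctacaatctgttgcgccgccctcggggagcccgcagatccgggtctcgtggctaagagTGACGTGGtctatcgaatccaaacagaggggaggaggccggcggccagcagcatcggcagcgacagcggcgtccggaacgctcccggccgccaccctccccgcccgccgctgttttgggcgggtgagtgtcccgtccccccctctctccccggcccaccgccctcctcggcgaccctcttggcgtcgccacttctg
The capitals begin at base 153 in Pdia6 and at base 146 in Dnajc3, where both parts of the ER stress element face the direction of transcription. They begin at base 183 in Slc7a6 and at base 105 in Smim14, where they mark the unfolded protein response element. Pdia6 stood at 535, 521, 509.7 and 469.6 against 142, 146, 105 and 112 CPM in the distal colon and 652, 588, 661 and 607 against 237, 261, 205 and 197 CPM in section 8, an averaged log2 fold change of 1.74 ± 0.08. Dnajc3 was the smaller, with 1.05 ± 0.07, and Smim14 the larger, with 2.50 ± 0.06 and levels of 349.6 to 367 against 70.4 to 72.1 CPM and 209.7 to 269.5 against 33.8 to 38.7 CPM. Of all 20 tested genes with an ER stress element in a window, 14 were called higher in the averaged contrast, 1 lower and 5 neither, with a median log2 fold change of 0.68; over all tested genes 34.5% were called higher. The 9 of them on the ER folding list were all called higher, among them the chaperones Hspa5, with 0.91, and Calr, with 0.94, and of the other 11 genes 5 were. For 2 of the 9 the average hides the regions: Canx had 0.57 in the distal colon and -0.17 in section 8, and Syvn1 had 0.80 and -0.35.

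**Figure D3:**
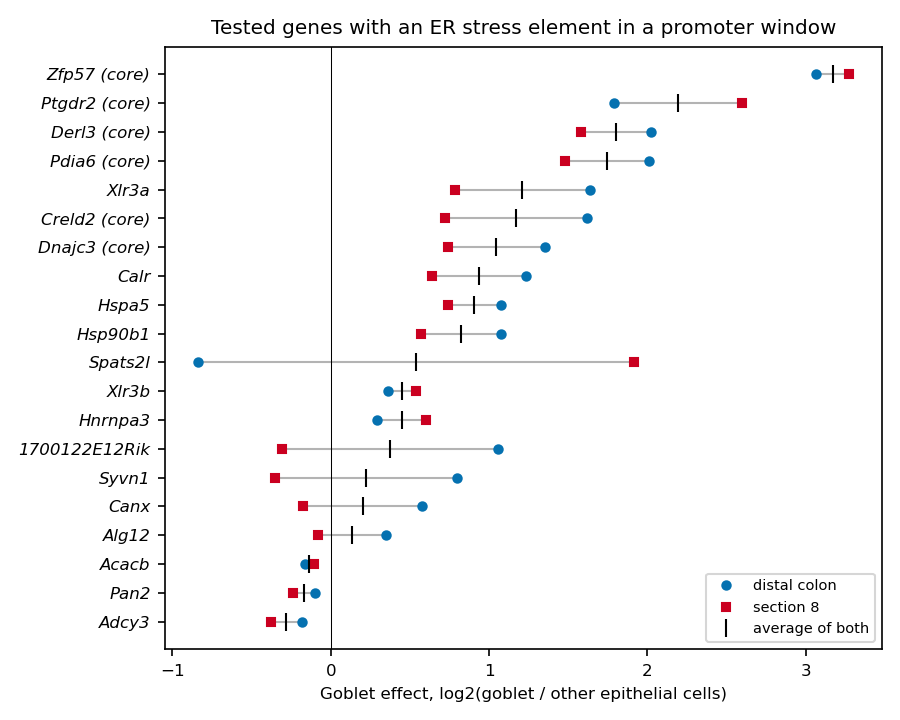
Goblet effect, as log2 of goblet over other epithelial cells, of the 20 tested genes with an ER stress element in a RefSeq promoter window; circles are the distal colon, squares section 8 and black ticks the average. The 6 core genes are marked, and 10 of the 11 genes with the largest averages lie right of 0 in both regions, the exception being Spats2l.

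Calcium handling included several large core increases. Of 26 tested genes 14 were called higher and 7 lower, with a median of 0.45, and 7 were core and higher. Beside these stand 34.5%, 34.3% and 4.05% of all tested genes. Atp2c2, a pump that loads calcium and manganese into the Golgi and secretory vesicles, had 342, 289, 336 and 276 CPM against 30.9, 32.9, 22.2 and 22.6 CPM in the distal colon and 104, 114, 169 and 124 against 10.9, 11.97, 10.98 and 7.83 CPM in section 8. The groups did not overlap, and its log2 fold changes were 3.52 ± 0.17 and 3.61 ± 0.18. Nucb2 and Rcn1, calcium-binding proteins of the Golgi and ER, had averaged log2 fold changes of 2.94 ± 0.10 and 2.89 ± 0.10. Atp2b4, a calcium pump of the plasma membrane, was the lower core member, with -3.06, and rested on 12 counts in distal colon goblet cells.

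Among Notch genes 6 of 20 were called higher and 7 lower, with a median of -0.10. These called counts are near the shares over all tested genes, 34.5% and 34.3%. Core and higher were 4 of the 20, against 4.05% of all tested genes: Dll1, Dll3, Lfng and Hes6. Dll1, a ligand that signals to neighbouring cells, had 60.1, 57.4, 61.5 and 72.6 CPM against 9.14, 8.27, 9.08 and 8.86 CPM in the distal colon and 89.0, 92.3, 96.8 and 80.9 against 20.6, 20.1, 28.4 and 24.1 CPM in section 8, log2 fold changes of 2.83 ± 0.11 and 1.95 ± 0.10. Lfng, which adds sugars to Notch and so tunes its response to ligands, had 2.27 ± 0.11 and 1.69 ± 0.10, and Hes6, which opposes Hes1, had 1.64 ± 0.08 and 0.76 ± 0.08. Dll3 was near the limit of detection, with 7 and 13 counts in all libraries of the other cells of the 2 regions. The related ligand Dll4 was not core: it was at 39.0 to 50.8 against 2.76 to 3.53 CPM in the distal colon but at 35.8 to 46.6 against 35.4 to 53.6 CPM in section 8, where the groups overlapped.

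Receptors were mostly lower, with a few core exceptions. Of 26 receptors of neural, hormone and cytokine signals 8 were called higher and 15 lower, and of 31 receptor tyrosine kinases and ligands 9 and 18, with medians of -0.28 and -0.37. By comparison 34.5% of all tested genes were called higher and 34.3% lower. Ffar4, a receptor of long-chain fatty acids, was the core increase of the first list, at 60.2, 105, 93.5 and 79.9 against 13.6, 7.97, 11.8 and 16.96 CPM in the distal colon and 43.7, 40.0, 40.8 and 37.3 against 6.90, 7.72, 7.10 and 5.50 CPM in section 8. P2ry2, a receptor of extracellular ATP and UTP, differed by about as much the other way, with averaged log2 fold changes of -2.63 and 2.66. Fgfr3 was the core increase of the kinases, with 2.16 ± 0.13 and 1.97 ± 0.13, and Erbb2 and Erbb3, partners in one receptor, were core decreases with -1.29 ± 0.08 and -1.04 ± 0.10. In the list of apical trafficking 4 of 18 genes were called higher and 12 lower, with a median of -0.29. Slc9a3r2, a scaffold that holds membrane proteins at the apical surface, was its core increase, with 24.9 ± 3.23 against 0.947 ± 0.333 CPM in the distal colon and 5.68 ± 0.685 against 0.406 ± 0.1104 CPM in section 8.

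Ion transporters held core genes of both directions. Slc12a2, which brings chloride in across the basolateral membrane of secreting cells and is also on the stem cell list, had folds of 2.34 and 2.35, from 469 ± 38.4 to 1097 ± 129 CPM in the distal colon and from 274 ± 34.0 to 643 ± 76.5 CPM in section 8. Slc4a4, a sodium bicarbonate cotransporter, was lower by 3.94-fold and 3.95-fold, and the related carrier Slc4a7 was higher with 1.65 ± 0.10 and 1.02 ± 0.10. For Slc12a2 and Slc4a4 the 95% intervals of the region difference were -0.33 to 0.32 and -0.36 to 0.37. In the whole list of sodium, chloride and bicarbonate transport 6 of 22 were called higher and 14 lower, with a median of -0.70. Shares over all tested genes were 34.5% called higher and 34.3% lower. Of the 8 keratins on the list Krt7 alone was core, at 294 ± 9.92 against 83.5 ± 5.21 CPM and 319 ± 47.8 against 132 ± 8.16 CPM. A keratin gene next to it in gene order, not on the list, was core and higher too.

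The brush border list held many of the core decreases. All 18 tested brush border genes were called lower in the averaged contrast, with a median of -1.55, and 10 were core, against 6.16% of all tested genes. Cdhr2 and Cdhr5 form the links between microvilli. Cdhr2 had 209, 233, 198 and 203 CPM in distal colon goblet cells against 1121, 1096, 1202 and 1203 CPM, and 556, 516, 837 and 698 against 2588, 2229, 3544 and 3984 CPM in section 8, log2 fold changes of -2.46 ± 0.17 and -2.24 ± 0.17. Slc9a3r1, a scaffold under the microvillar membrane, and Espn, which bundles actin there, had averaged log2 fold changes of -2.40 ± 0.11 and -2.40 ± 0.17. Of the absorptive markers given above, 11 of 14 were called lower and none higher in the averaged contrast. The part of residual absorptive cells in the brush border levels left in goblet libraries was not tested.

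The 10 largest decreases under the same limits on list, level and overlap were Nt5e, Hspa12a, Sgk2, Slc30a10, Slc13a2, Cyp2d22, Apob, H2-Q1, Kalrn and Rbp2. Nt5e (CD73), which makes adenosine outside the cell, is on chromosome 9, 88327197 to 88372092. It had 10.8, 19.4, 12.2 and 13.6 CPM in distal colon goblet cells against 260.2, 259, 279 and 278 CPM, and 0.796, 0.982, 1.141 and 2.08 against 14.7, 13.4, 31.0 and 48.2 CPM in section 8. The groups did not overlap, and the averaged log2 fold change was -4.35 ± 0.30, or -4.11 with libraries S1 to S4 of section 8 alone and -4.44 with S5 to S8 alone. Apob, the scaffold protein of fat export, shows how far levels and folds can part: it stood at 113, 109, 154 and 116 CPM in the other cells of the distal colon and at 4810.4, 4201, 5796 and 6569.5 CPM in those of section 8. Goblet libraries had 8.88 to 12.9 and 471 to 604 CPM, so the folds were 11.5 and 10.0. Slc30a10, a manganese exporter, and Slc13a2, a citrate and succinate carrier of the brush border, were lower by 14.5-fold and 12.3-fold. Sgk2, a kinase related to the aldosterone-induced Sgk1, was lower by 18.8-fold and Hspa12a, a distant relative of the heat shock protein Hsp70, by 19.3-fold. Rbp2, the cellular retinol-binding protein of absorptive cells, was lower by 9.52-fold, Cyp2d22, a cytochrome P450, by 12.2-fold, and Kalrn by 10.0-fold. The plot of the 10 decreases shows the groups apart in each region.

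**Figure D4:**
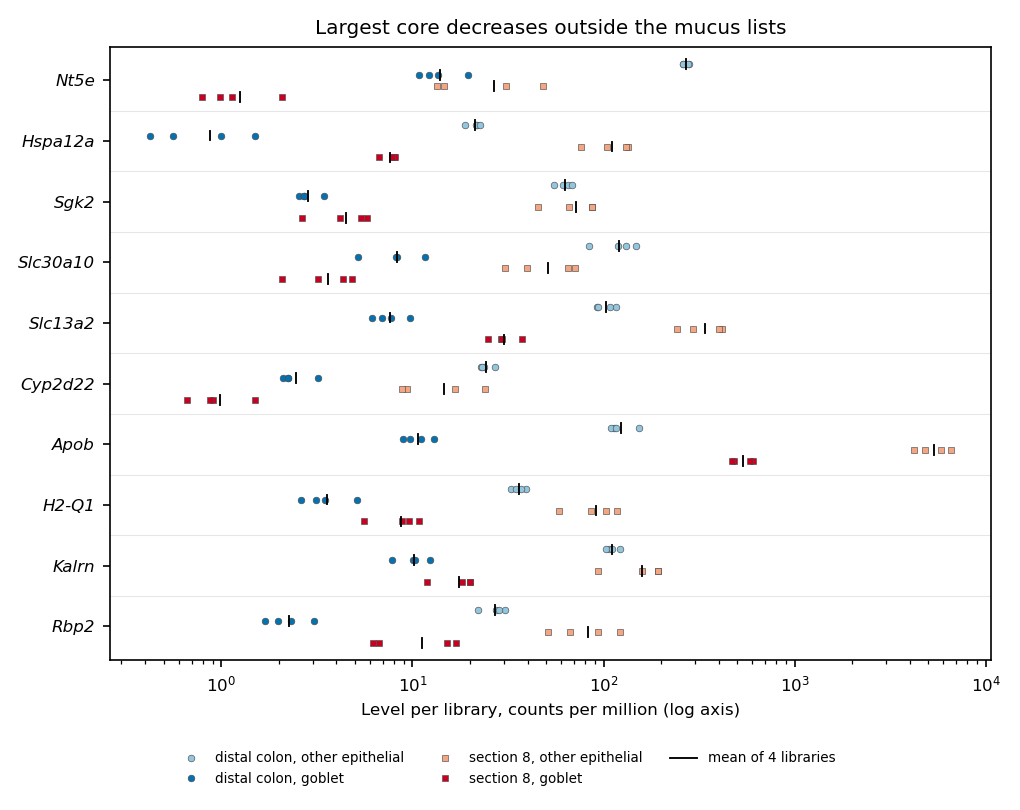
Level in each of the 16 libraries, in CPM on a log axis, of the 10 named core genes outside the mucus lists with the largest averaged decrease. Circles are distal colon and squares section 8 libraries, dark symbols are goblet cells and black ticks are means of 4 libraries; goblet libraries lie to the left of the other libraries of their region in every row.

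Closest likeness among lower core genes of at least 2 log2 was found for Slc30a10, H2-Q1, Pdzd3, Eps8l2 and Slc16a5. Pdzd3, a scaffold with PDZ domains that binds guanylate cyclase C, had folds of 4.62 and 4.70 with a region difference of 0.02 (95% interval -0.34 to 0.39), and Eps8l2, an actin regulator of the Eps8 family, had 4.43 and 4.34 with -0.03 (95% interval -0.49 to 0.43). Slc16a5, of the monocarboxylate carrier family, had 4.37 and 4.42. These too were picked for a small difference.

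Among the lists of fuel metabolism, glycolysis and fatty acid oxidation were mostly lower, set against 34.3% of all tested genes called lower. In glycolysis 18 of 22 genes were called lower and 2 higher, with a median of -0.77, and 6 were core. Pkm, pyruvate kinase, had 251 ± 9.81 against 915 ± 19.6 CPM and 354 ± 47.9 against 779 ± 139 CPM. Pfkp, of the rate-setting step, had an averaged log2 fold change of -1.57 ± 0.06, Eno1 had -1.26 ± 0.08, and Hkdc1, a hexokinase family member, had -2.76 ± 0.13. In fatty acid oxidation and peroxisomes 22 of 26 were called lower and 1 higher, with a median of -0.59, but only 2 were core. In the tricarboxylic acid cycle 9 of 21 were called lower, 3 higher and 9 neither, with a median of -0.04, and 2 were core, Pcx and Cs, the latter citrate synthase, with -1.19 ± 0.05. For retinoid metabolism 9 of 16 were called lower and 2 higher, with a median of -0.89. Rdh16 and Aldh1a1, enzymes that turn retinol to retinal and retinal to retinoic acid, were core with -3.09 ± 0.11 and -2.68 ± 0.11. Of 28 glutathione and phase II genes 19 were called lower and 3 higher, with a median of -0.54, and Sult1b1, a sulfotransferase, was core with -2.46 ± 0.09.

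MHC class I presentation was lower as a list, with 16 of 19 genes called lower and 1 higher, a median of -0.73 and 4 core genes. H2-Q1, on chromosome 17, 35320405 to 35325099, had 3.12, 5.15, 3.48 and 2.62 against 39.2, 32.9, 34.6 and 37.1 CPM in the distal colon and 8.83, 5.55, 10.8 and 9.55 against 85.4, 58.3, 117 and 103 CPM in section 8. H2-T3, the thymus leukemia antigen that intraepithelial lymphocytes bind, and Nlrc5, the activator of class I genes, had averaged log2 fold changes of -2.46 ± 0.10 and -2.09 ± 0.27. The H2 genes are near-identical copies, and how shared reads were counted is not given in the sources used here, so values of single H2 genes are uncertain. Markers of intraepithelial lymphocytes fell in the same libraries: all 14 were called lower, with sums of 15.9 to 28.0 against 279.6 to 428 CPM in section 8 and 2.15 to 3.17 against 7.54 to 9.05 CPM in the distal colon. Cd3g, Gzma, Gzmb, Nkg7 and Cd7 were at 0 in distal colon goblet cells. The part of lymphocyte RNA in the class I values was not tested.

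Junction genes were lower by less. Of 27 tight junction and adhesion genes 23 were called lower and 4 higher, with a median of -0.61 and 4 core genes. Cgn, cingulin of the tight junction, had folds of 2.10 and 2.17, and Pard6b, of the apical polarity complex, had log2 fold changes of -2.28 ± 0.17 and -1.36 ± 0.17. Of 46 other epithelial transcription factors 30 were called lower and 13 higher, with a median of -0.47, and 10 were core, all lower. Prdm1 had 0.655 to 1.05 against 7.42 to 9.18 CPM and 4.38 to 8.62 against 24.0 to 46.8 CPM. Maf was far more abundant in section 8, at 41.7 to 68.9 against 379.7 to 576 CPM, and low in the distal colon, at 0.476 to 1.03 against 2.56 to 4.57 CPM, with log2 fold changes of -2.23 ± 0.31 and -3.16 ± 0.17.

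Hormone-producing enteroendocrine cells, the other large secretory lineage, had their markers mostly lower in goblet libraries. Of 21 tested markers 18 were called lower, 2 higher, and 8 were core and lower. Their sum was 108 to 137 against 498 to 656 CPM in the distal colon and 210 to 309 against 451 to 653 CPM in section 8. Chga, the granule protein of these cells, had 10.8 to 16.1 against 78.2 to 92.4 CPM and 15.9 to 26.2 against 58.9 to 89.0 CPM. The hormone genes Gcg and Pyy had averaged log2 fold changes of -2.02 ± 0.12 and -1.93 ± 0.15. Of 12 tuft cell markers 5 were called lower and 7 were not called, with none core, beside 34.3% of all tested genes called lower.

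Some lists were called in part but held few core genes or none. For the cell cycle 23 of 27 genes were called higher and 2 lower, but the median was only 0.42 and the single core member, the inhibitor Cdkn1a, was lower with -1.12 ± 0.13 and had overlapping libraries in at least 1 region. Stem cell markers, 7 of 10 called higher, summed to 1240.5 to 1517 against 698 to 793 CPM in the distal colon and 877 to 1166 against 589 to 687 CPM in section 8. Most of each goblet sum was Slc12a2, the chloride carrier described above. The median log2 fold change of the 10 markers was -0.013 in the distal colon and 0.605 in section 8. Their part in the cell cycle values was not tested. The vacuolar proton pump had 6 of 16 higher and 3 lower with a median of 0.06, cholesterol synthesis 5 of 21 and 8, early response and dissociation stress genes 6 of 18 and 1, and none of these held a core gene. Autophagy and lysosome genes had 8 of 28 higher, 12 lower and 1 core gene each way. The share of all tested genes was 34.5% called higher and 34.3% lower. Called counts of the proton pump, cholesterol, early response and lysosome lists are therefore not read as a result about them. The chart of lists sets these counts side by side.

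**Figure D5:**
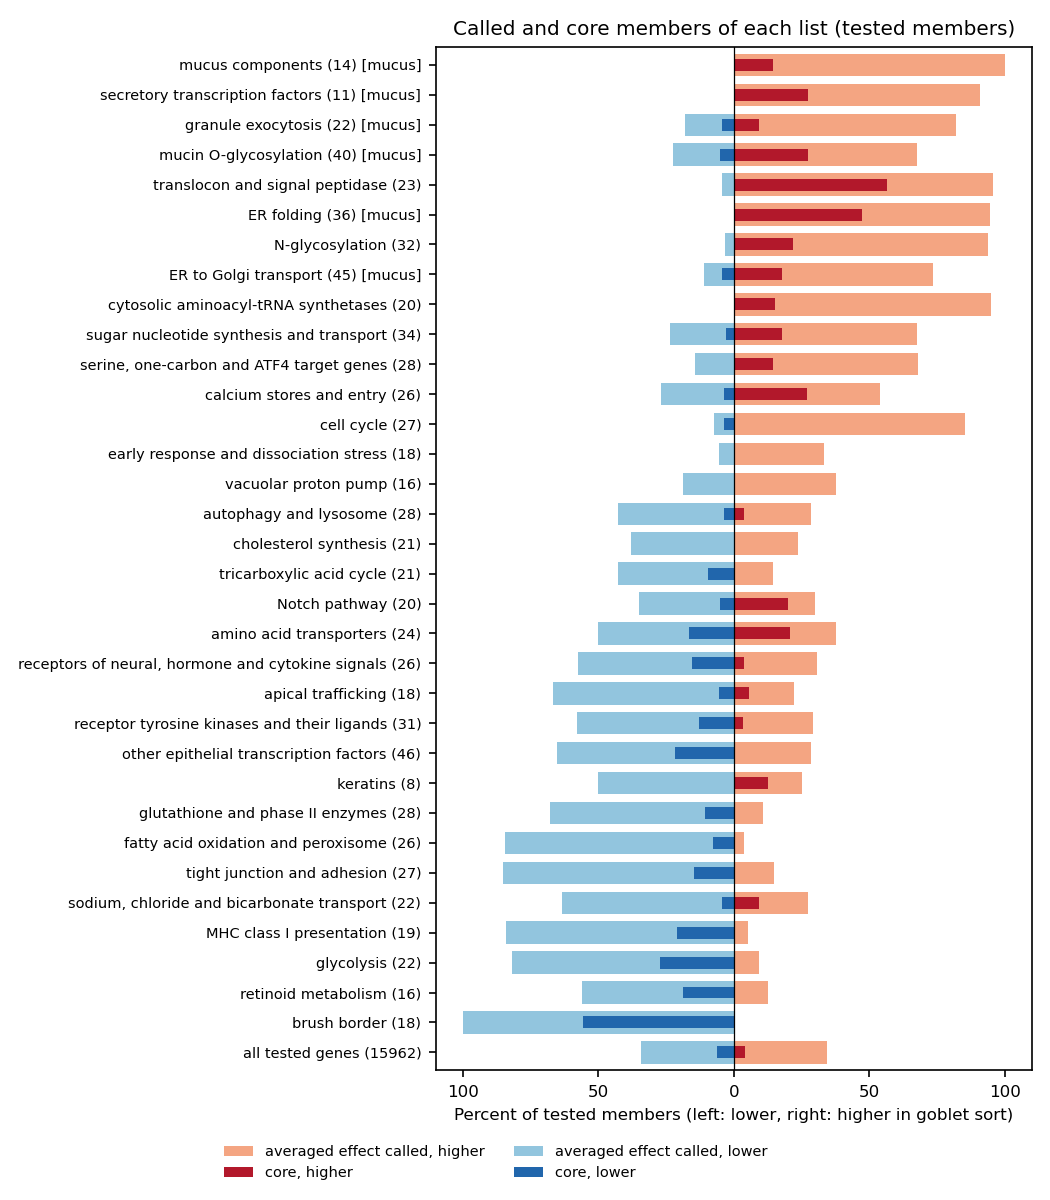
Pale bars give the percent of tested members of each list called in the averaged contrast and dark bars the percent that were core, to the right for higher and to the left for lower in goblet cells; the number of tested members is in brackets. All tested genes are the last row, while the longest dark bars outside the mucus lists are those of the translocon (13 of 23) and, to the left, the brush border (10 of 18).

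Likeness between regions was a matter of degree. The median absolute region difference was 0.41 log2 in the higher core genes and 0.40 in the lower ones. The 95% interval of the difference lay wholly within 1 log2 for 321 of the 646 and 419 of the 984, while for the remainder the interval reached past the limit. For 170 higher and 216 lower core genes the difference itself was called, so the same sign and the limit on size did not make the effects equal. The effect was larger in the distal colon for 346 of the 646 and for 589 of the 984. Just inside the limit were Fbxo21 and Fry among the higher genes, with region differences of 0.98 and -0.99, and Tes and Dsg2 among the lower ones, with -0.997 and -0.997. Just outside were Enpp4 and Aldh18a1, with -1.01 and 1.004, and Slc46a1 and Tmc7, with -1.004 and 1.01. The rule set no limit on levels. In the higher core genes the goblet level was over 2-fold higher in the distal colon for 203 and over 2-fold higher in section 8 for 41. In the lower core genes the level in the other cells was over 2-fold higher in the distal colon for 99 and over 2-fold higher in section 8 for 406.

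At the other extreme, 713 genes, 4.47% of those tested, were called in both regions in opposite directions, 317 higher in distal colon goblet cells and 396 higher in those of section 8. Cmah, which turns the sialic acid Neu5Ac into Neu5Gc, stood at 197, 224, 225 and 160.1 CPM in distal colon goblet cells against 3.61, 3.65, 4.30 and 5.25 CPM. In section 8 it was at 0.0531 to 0.202 against 0.464 to 0.987 CPM, from 14 and 95 counts. Xpnpep2, a membrane aminopeptidase, had log2 fold changes of 4.36 ± 0.31 and -2.81 ± 0.19. Lama5, a laminin chain, and Sptssb, a subunit of the enzyme that starts sphingolipid synthesis, went the other way, with -2.47 ± 0.27 and 2.58 ± 0.29 for Lama5 and -4.62 ± 0.19 and 3.88 ± 0.22 for Sptssb. Averages over regions of such genes, such as 0.06 for Lama5, describe neither region.

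The core was mostly protein coding, as were all tested genes. Of the 622 higher core genes with 1 match in the gene annotation 86.8% were protein coding, of 946 lower ones 83.6%, and of 15287 tested ones 84.4%. Next to each other in the order of tested genes stood 129 of the higher core genes, in 61 runs of at most 3, and 238 of the lower ones, in 102 runs of at most 8. How many would stand so without any grouping was not tested, so these counts do not tell whether the core is clustered or scattered. The longest run was 8 unnamed transcripts on chromosome 3 between 104114039 and 104190193, whose separate counting as genes was not tested.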

How the data were processed

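RNA of sorted goblet and other epithelial cells was sequenced in 16 libraries, 4 per group. Libraries were made with a stranded total RNA kit after removal of ribosomal RNA, per the labels' protocols. STAR 2.4.0f, HTSeq 0.6.1p1, FastQC 0.11.2 and DESeq2 1.14 and the build mm10 are named in the submitters' processing notes, with no settings, so the strand setting of the counting is not given in the sources used here. The values deposited by the authors are raw read counts per gene, in 1 table of 46882 rows for each region. A table of counts divided by size factors was not used. The raw tables were joined by gene symbol; 4 rows with a repeated symbol and 37 symbols starting with mt-, which held 0 counts in the distal colon and 3.19% to 8.36% of counts in section 8, were left out.

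The test used the quasi-likelihood functions of edgeR (version 4.0.16, R version 4.3.3; filterByExpr, TMM factors, robust quasi-likelihood fit of all 4 groups, Benjamini-Hochberg adjustment over 15962 genes, threshold 0.05). CPM use TMM-scaled library sizes, and ± marks the SE of a log2 fold change or the SD of a level. The common biological coefficient of variation was 0.128. Gene positions and exon overlaps come from GENCODE on mm10. Named genes were the 15 largest increases and 10 largest decreases, the 5 most alike in each direction, up to 4 core members of each list, the genes nearest the limit, and genes of opposite direction; exceptions are stated, and 1 core gene is not reported here. The members and lists were chosen with earlier results of these data known. On simulated counts the fit called 91% of 100 genes changed by 1 log2, 98% of 100 changed by 2 log2 and 9 of 15562 unchanged genes in the averaged contrast; the core rule took in 46 and 87 of the changed genes and 0 of the unchanged ones. Alternatives were DESeq2 1.42.0, upper-quartile factors, other filters, thinned counts, each region alone, other core limits and leaving out each library.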

Additional observations from a re-analysis of the deposited data

Results flagged for a closer look

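For 30 of 472 gene and group values, 1 library stood far from the other 3 by Dixon's criterion, which chance meets in about 1 of 20 groups. In distal colon goblet cells the distant library lay above the rest for Cyp2d22 (replicate 2, 3.21 CPM), Ostc (replicate 1, 164 CPM), Prdm1 (replicate 3, 1.05 CPM), Slc2a10 (replicate 2, 32.9 CPM), Tars (replicate 1, 177 CPM) and Ttyh1 (replicate 2, 24.9 CPM). In other distal colon cells the distant library lay above the rest for Apob (replicate 3, 154 CPM), H2-T3 (replicate 3, 12.8 CPM), Slc43a1 (replicate 3, 2.62 CPM), Slc46a1 (replicate 4, 45 CPM) and Ttyh1 (replicate 1, 2.68 CPM). In section 8 goblet cells the distant library lay above the rest for Cbs (replicate 4, 5.86 CPM), Cd24a (replicate 4, 580.0 CPM) and Spdef (replicate 3, 251 CPM). In other section 8 cells the distant library lay above the rest for Ptpro (replicate 1, 2.71 CPM) and Rcn1 (replicate 1, 5.2 CPM). In distal colon goblet cells the distant library lay below the rest for Erbb3 (replicate 1, 234 CPM) and Pkm (replicate 3, 237 CPM). In other distal colon cells the distant library lay below the rest for Dll3 (replicate 1, 0.0547 CPM), Gcg (replicate 1, 35.3 CPM), Pfkp (replicate 2, 246 CPM), Rdh16 (replicate 2, 139 CPM) and Tsta3 (replicate 3, 53.8 CPM). In section 8 goblet cells the distant library lay below the rest for Calcrl (replicate 3, 1.07 CPM), Slc7a6 (replicate 2, 28.0 CPM) and Sult1b1 (replicate 2, 28.1 CPM). In other section 8 cells the distant library lay below the rest for Hepacam2 (replicate 2, 8.11 CPM), Slc50a1 (replicate 4, 6.04 CPM), Tsta3 (replicate 1, 65.5 CPM) and Xbp1 (replicate 1, 211 CPM).

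The goblet effect differed between regions by the interaction contrast (edgeR quasi-likelihood test, adjusted p under 0.05) for 57 of the 118 genes named here; differences are distal colon minus section 8, in log2. Among core genes higher in goblet cells with a larger effect in the distal colon, the difference was 0.89 for Dll1, 0.61 for Dnajc3, 0.98 for Fbxo21, 0.88 for Hes6, 0.54 for Krt7, 0.58 for Lfng, 0.71 for Ostc, 0.53 for Pdia6, 0.98 for Pla2g2f, 0.72 for Rap1gap, 0.88 for Rapgef3, 0.63 for Rcn1, 0.68 for Rpn1, 0.63 for Slc4a7, 0.93 for Slc9a3r2, 0.47 for Ssr3, 0.54 for Stt3a, 0.58 for Tars, 0.30 for Tsta3 and 0.90 for Xbp1. Among higher core genes with a larger effect in section 8, the difference was -0.93 for Ccl9, -0.99 for Fry, -0.39 for Gne, -0.72 for Kdelr3, -0.73 for Pde2a, -0.57 for Sec11c, -0.95 for Slc2a10, -0.45 for Slc35a1, -0.68 for Slc7a6, -0.35 for Smim14, -0.55 for Txndc5 and -0.64 for Wars. Among core genes lower in goblet cells, a negative difference, that is a deeper decrease in the distal colon, was found: -0.84 for Cdhr5, -0.72 for Cdkn1a, -0.84 for Chga, -1.0 for Dsg2, -0.54 for Erbb2, -0.62 for Gcg, -0.97 for H2-T3, -0.88 for Hkdc1, -0.91 for Pard6b, -0.42 for Pfkp, -0.73 for Pkm, -0.60 for Rdh16, -0.98 for Sult1b1 and -1.0 for Tes. A deeper decrease in section 8 was found: 0.92 for Aldh1a1. Outside the core, the difference was 1.0 for Aldh18a1, 8.42 for Cmah, 3.94 for Dll4, -1.01 for Enpp4, -5.06 for Lama5, -1.60 for Muc2, -1.0 for Slc46a1, -8.51 for Sptssb, 1.01 for Tmc7 and 7.18 for Xpnpep2.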

How the results depend on the processing

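The number of core genes followed the limits of the rule. With a region difference of at most 0.5 there were 375 higher and 575 lower core genes, and with the 95% interval of the difference within 1 there were 321 and 419. With no minimum on the fold there were 2423 and 2425, with an averaged log2 fold change of at least 2 there were 183 and 277, and with at least 10 CPM in the higher sort of both regions 319 and 476. Leaving out 1 library gave 612 to 670 higher and 933 to 1042 lower core genes, of which 591 to 624 and 884 to 947 were also core with all libraries. Counts thinned to the smallest library gave 532 and 821, with 74.0% and 74.4% of the core kept. DESeq2 gave 617 and 1064. Core genes that stayed core under another of these fits kept their sign, which was not checked for those that left the core.

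Of 108 core genes named here, 22 left the core when 1 library was left out, at 2 to 8 per library: Aldh1a1, Cars, Ccl9, Dsg2, Erbb3, Fbxo21, Fcgbp, Fry, H2-T3, Hkdc1, Hspa12a, Maf, Pard6b, Pla2g2f, Rapgef3, Slc2a10, Slc3a1, Slc9a3r2, Spdef, Sult1b1, Tes and Xbp1. Of 1295 averaged values of named genes 1290 counted as the same and 5 lost their call. For genes called in the main fit, the same means an unchanged direction and call. For genes not called there, a change of sign was not counted. The exceptions, Cmah (0.94 with section 8 libraries S1 to S4 alone, edgeR adjusted p = 0.124) and Sptssb (-0.32 with upper-quartile factors, -0.15 with S5 to S8 alone, -0.45 to -0.29 with 1 library left out), have opposite effects in the regions. The cause of these changes was not tested. The split of the section 8 libraries was chosen after seeing the data. No paired analysis was made, because the labels give the groups no shared replicate numbers. In section 8 the numbers in the titles alternate between the sorts. Those of the distal colon also fall into neighbouring pairs of a goblet and an other library. Whether neighbouring numbers share a mouse is not given in either region.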
